A study of Mus musculus with 30 samples.

Results

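Loss of Smarcb1 in mouse thyroid tumours driven by Braf V600E was examined under vehicle treatment, by comparing 3 RNA-seq libraries of Braf V600E with Smarcb1 knockout (replicates 1, 2 and 3) with 3 libraries of Braf V600E alone (replicates 2, 4 and 5). These 6 libraries were chosen from the sample labels out of 28 analysed, and all 19016 genes with enough reads entered the comparison. Both groups carried Braf V600E, received vehicle for 8 days and were killed about 2 h after the last dose. They are called Braf Smarcb1 knockout and Braf below, and their values are given in replicate order. Used beside them were the same pair of genotypes under the MEK inhibitor CH5126766 (CKI), with 3 libraries each, Braf V600E with Arid1a knockout (3 libraries) and with Arid2 knockout (2 libraries) under vehicle, and untreated wild-type thyroid (3 libraries). The labels name no Cre driver, animal age or strain.

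Smarcb1 encodes a core subunit of SWI/SNF, an ATP-driven complex that slides or evicts nucleosomes and so opens enhancers and promoters. It counters Polycomb repression, and its loss defines malignant rhabdoid tumours in children. Thyroid follicular cells take up iodide, attach it to thyroglobulin and release thyroid hormone under the control of Pax8, Nkx2-1, Foxe1 and the TSH receptor. Oncogenic Braf signals through MEK and ERK and lowers this programme.

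Library depth was 23879271 to 34400066 counts over the 28 libraries. Levels are in CPM (counts relative to the library total, with TMM factors) and are not divided by gene length, so they compare samples and not genes. Log2 fold changes are Braf Smarcb1 knockout over Braf with their standard error (SE), and a gene is called when edgeR's quasi-likelihood test gives it a p under 0.05 after Benjamini-Hochberg adjustment over all 19016 genes. No label says whether the replicates are separate animals, and the p-values therefore measure only the spread between these libraries, which may be technical. They describe both thyroids frozen whole, for wild-type, Arid2 and Smarcb1 mice, and sorting of YFP-positive cells, without saying which library had which. A difference in preparation between the groups therefore cannot be told apart from genotype.

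Smarcb1 itself was low in every knockout library. It had 2.28, 10.03 and 17.9 CPM in Braf Smarcb1 knockout, against 101, 56.97 and 131 CPM in Braf, a log2 fold change of -3.26 ± 0.62 (adjusted p = 0.000592). The groups did not overlap, and the knockout libraries differed among themselves, with replicate 1 lowest and replicate 3 highest. Reads from cells that kept the gene and reads from outside a deleted stretch were not distinguished.

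Of 27 measured members of the complex, 5 were called higher and 2 lower, Smarcb1 included, where 14.4% of all genes tested were called higher and 14.2% lower. The median log2 fold change was 0.16, against 0.03 over all genes. Smarcd3, an accessory subunit of the complex in muscle and heart development, had 0.89, 3.92 and 5.61 CPM in Braf Smarcb1 knockout and 0.255, 0.398 and 0.393 CPM in Braf. Bcl7c, another accessory subunit, had 12.7, 37.2 and 37.5 CPM against 9.07, 3.98 and 6.84 CPM. Smarcc1, a scaffold that binds Smarcb1, had 45.4, 91.9 and 59.6 CPM against 11.5, 15.7 and 28.1 CPM. All 3 were higher without overlap, by 3.29 ± 0.71, 2.14 ± 0.44 and 1.83 ± 0.43 on the log2 scale. Pbrm1, of the PBAF form, was higher by 0.91 ± 0.26 (adjusted p = 0.0121). Dpf2, of the BAF form, was the one other subunit called lower, at -0.91 ± 0.25 (adjusted p = 0.00898). Its call was lost with the replicate block (adjusted p = 0.052), in the 6 libraries alone (0.0973) and with leukocyte (0.0788) or fibroblast markers (0.0795) as a covariate. The leukocyte covariate also ended the calls of Smarcc1 (adjusted p = 0.112) and Pbrm1 (0.167), and Pbrm1 did not pass in the 6 libraries alone (0.0696).

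The ATPase Smarca4 passed narrowly, at 1.03 ± 0.39 (adjusted p = 0.0496), and its call was lost without Braf replicate 2 or 4 or Braf Smarcb1 knockout replicate 1 or 2 (adjusted p = 0.138, 0.0925, 0.208 and 0.111). The ATPase Smarca2 (-0.52), Arid1a (0.24), Arid1b (0.58) and Arid2 (0.83) did not pass. Nor did Smarcc2 (-0.03), Smarce1 (0.16), Smarcd1 (1.03), Smarcd2 (0.43), Brd7 (-0.1), Brd9 (-0.24), Phf10 (0.03), Dpf1 (1.86), Dpf3 (-1.78), Actl6a (0.5), Actl6b (-0.21), Bcl7a (-0.06), Bcl7b (-0.05), Gltscr1 (-0.38), Ss18 (-0.16) and Ss18l1 (1.05). Leaving out 1 library gave a call to Smarca2 (without Braf replicate 5 or knockout replicate 3, adjusted p = 0.0491 and 0.0261), to Smarcd1 and Actl6a (without knockout replicate 3, adjusted p = 0.0462 and 0.0495) and to Ss18l1 (without Braf replicate 4, adjusted p = 0.0358).

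Across all genes, 2736 (14.4%) were called higher and 2697 (14.2%) lower in Braf Smarcb1 knockout, and 7618 passed an unadjusted p under 0.05. Counts of called genes in each list against Braf under vehicle are to be read beside these shares. The number of calls depended on the model. It was 2319 when the mean log2 level of the leukocyte markers entered as a covariate, and 2335 when these 6 libraries were fitted alone. The summed leukocyte markers did not overlap between the groups, so a call lost with that covariate does not tell leukocyte level from genotype. Groups of genes moved in opposite directions, as the bars of called shares show. In the lists of mitosis, DNA replication, the Hox clusters, the interferon response and neurons, genes called higher outnumbered those called lower. In the lists of epithelial junction, keratin, surfactant and thyroid genes and of stromal and macrophage markers, genes called lower outnumbered those called higher.

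**Figure D1:**
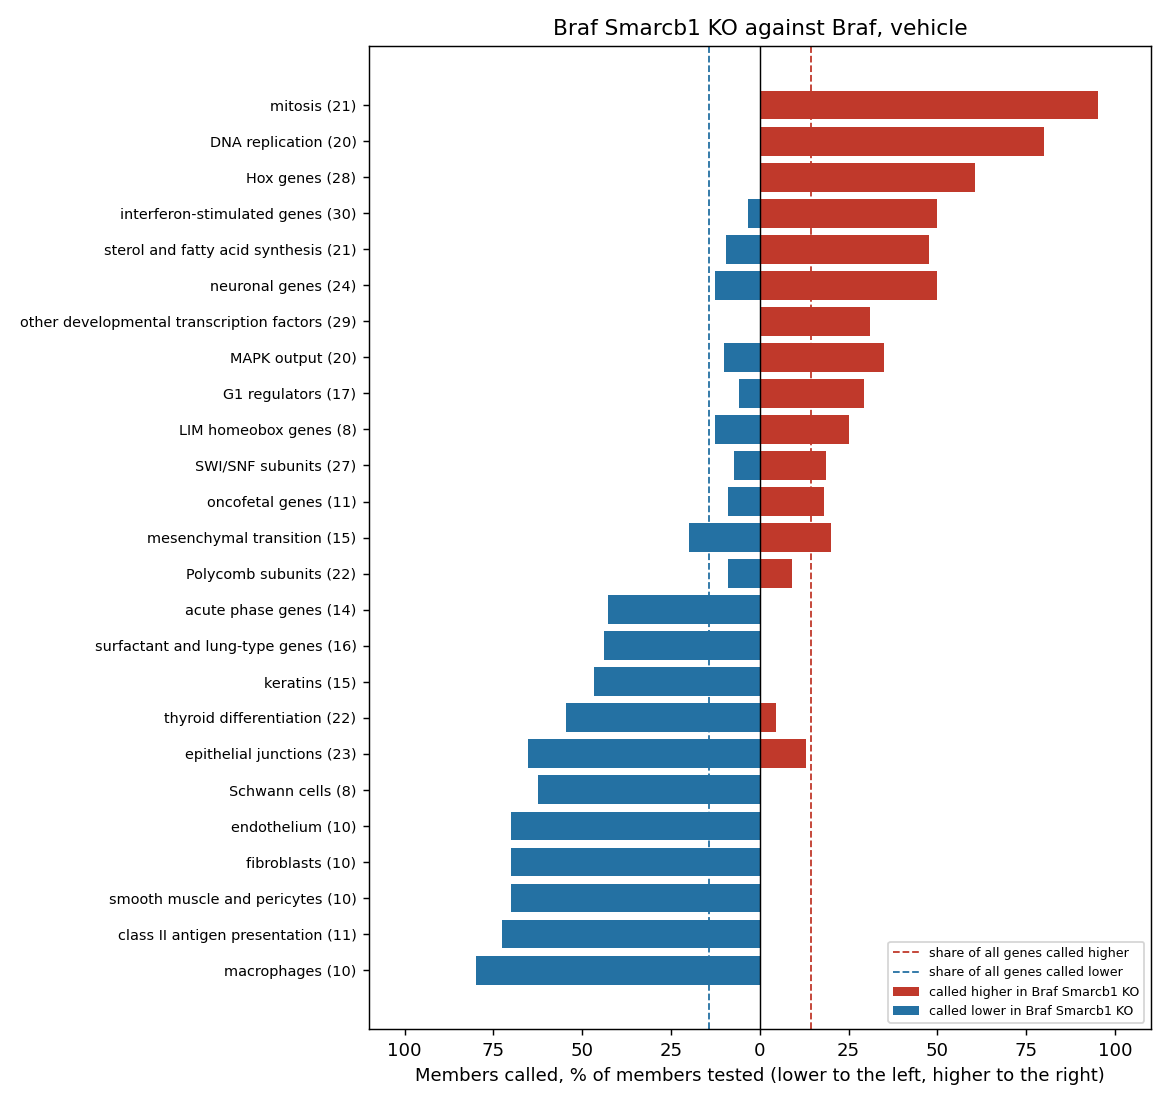
Bars give the share of the measured members of 25 gene lists called higher (right) or lower (left) in Braf Smarcb1 knockout against Braf under vehicle, with the number of members measured in brackets, and dashed lines mark the shares of all genes, 14.4% and 14.2%. Mitosis leads on the right with 20 of 21 members, and macrophage markers lead on the left with 8 of 10.

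Markers of other cell types differed between the libraries. Their part in the falls described here was not tested beyond the covariate fits, which for leukocytes cannot separate it from genotype. In bulk samples, fewer cells of a type and less RNA per cell cannot be told apart. Summed over 10 fibroblast markers, the level was 2075, 2737 and 1289 CPM in Braf Smarcb1 knockout and 908, 21989 and 5266 CPM in Braf, so that Braf replicate 4 stood far above the others and replicate 2 below every knockout library. Over 12 mast cell and basophil markers the sums were 29.5, 153 and 526 CPM against 4637, 421 and 1934 CPM, with Braf replicate 2 highest. Knockout replicate 3 lay above Braf replicate 4, so the groups overlapped. Of the 12 markers 2 were called lower and 10 did not pass. The mast cell receptor gene Ms4a2 was at 0 in every knockout library. Over 10 macrophage markers the sums were 253, 320.2 and 465 CPM against 1103, 1629 and 1101 CPM, without overlap. Summed over 7 leukocyte markers they were 109.8, 176 and 311 CPM against 553, 1033 and 745 CPM, again without overlap. Over 16 dissociation stress genes the ranges were close, 8726, 11051 and 8656 CPM against 9699, 14549 and 15584 CPM.

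The largest rises were genes with few or no reads in Braf tumours. They were picked among called genes whose groups did not overlap, so the separation of their libraries is no test. Lingo2, a neuronal membrane protein, had 30.8, 45.9 and 30.1 CPM in Braf Smarcb1 knockout and no count in any Braf library, so its total was at least 863-fold higher, taking 3 counts over the Braf group as the floor. Gad1, which makes the neurotransmitter GABA, had 59.5, 33.2 and 2.75 CPM against no count, at least 820-fold higher. Lhx9, a LIM homeobox factor of brain and gonad development, had 33.5, 33.5 and 2.9 CPM against no count, at least 591-fold higher. All 3 were absent from every Braf library and present in every knockout library, but replicate 3 held far less Gad1 and Lhx9 than the others.

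Klhl1, a neuronal actin-binding protein, had 16.3, 48.2 and 1.76 CPM in Braf Smarcb1 knockout and no count in Braf, at least 548-fold higher. Cckbr, the receptor for gastrin and cholecystokinin, had 46.8, 3.01 and 6.23 CPM against no count, at least 487-fold higher. Ng23 had 16.1, 24.2 and 16.8 CPM against no count, at least 460-fold higher. Of these, Ng23 was the most even over the knockout libraries, while Cckbr was carried mostly by replicate 1 and Klhl1 by replicates 1 and 2. Crh, the hypothalamic releasing hormone for corticotropin, had 4.3, 1.27 and 37.8 CPM against no count, at least 322-fold higher. Its highest library was replicate 3, and DESeq2 did not call it (adjusted p = 0.164). With leukocyte markers as a covariate Klhl1 (adjusted p = 0.0584) and Cckbr (0.0557) did not pass.

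Crabp1, a retinoic acid-binding protein of embryonic tissue, had 3589, 994 and 5110.1 CPM in Braf Smarcb1 knockout against 0.255, 1.27 and 1.38 CPM in Braf, a log2 fold change of 11.67 ± 0.88 (adjusted p = 5.00e-08). Ecel1, an endopeptidase of neurons, had 51.6, 88.3 and 124 CPM against 0, 0.0723 and 0 CPM. Its counts, 7831 against 2, gave a ratio of 3110 (95% counting interval 860 to 25700). Both were high in every knockout library and near 0 in every Braf library, and the choice of these genes required that the groups not overlap.

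In all, 357 genes called higher had a mean under 0.1 CPM in Braf, and 125 of them had no count in any Braf library. These were picked by their level, so their number is a description and no test. In the 3 wild-type libraries 228 of the 357 were also under 0.1 CPM, and 146 were under 0.1 CPM in wild type and in both the Arid1a and Arid2 knockouts. Of the 357, 54 averaged at least 5 CPM in Braf Smarcb1 knockout, and 175 were also called higher in the CKI libraries, which share no sample with these. In the other direction, 152 genes called lower averaged under 0.1 CPM in Braf Smarcb1 knockout.

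**Figure D2:**
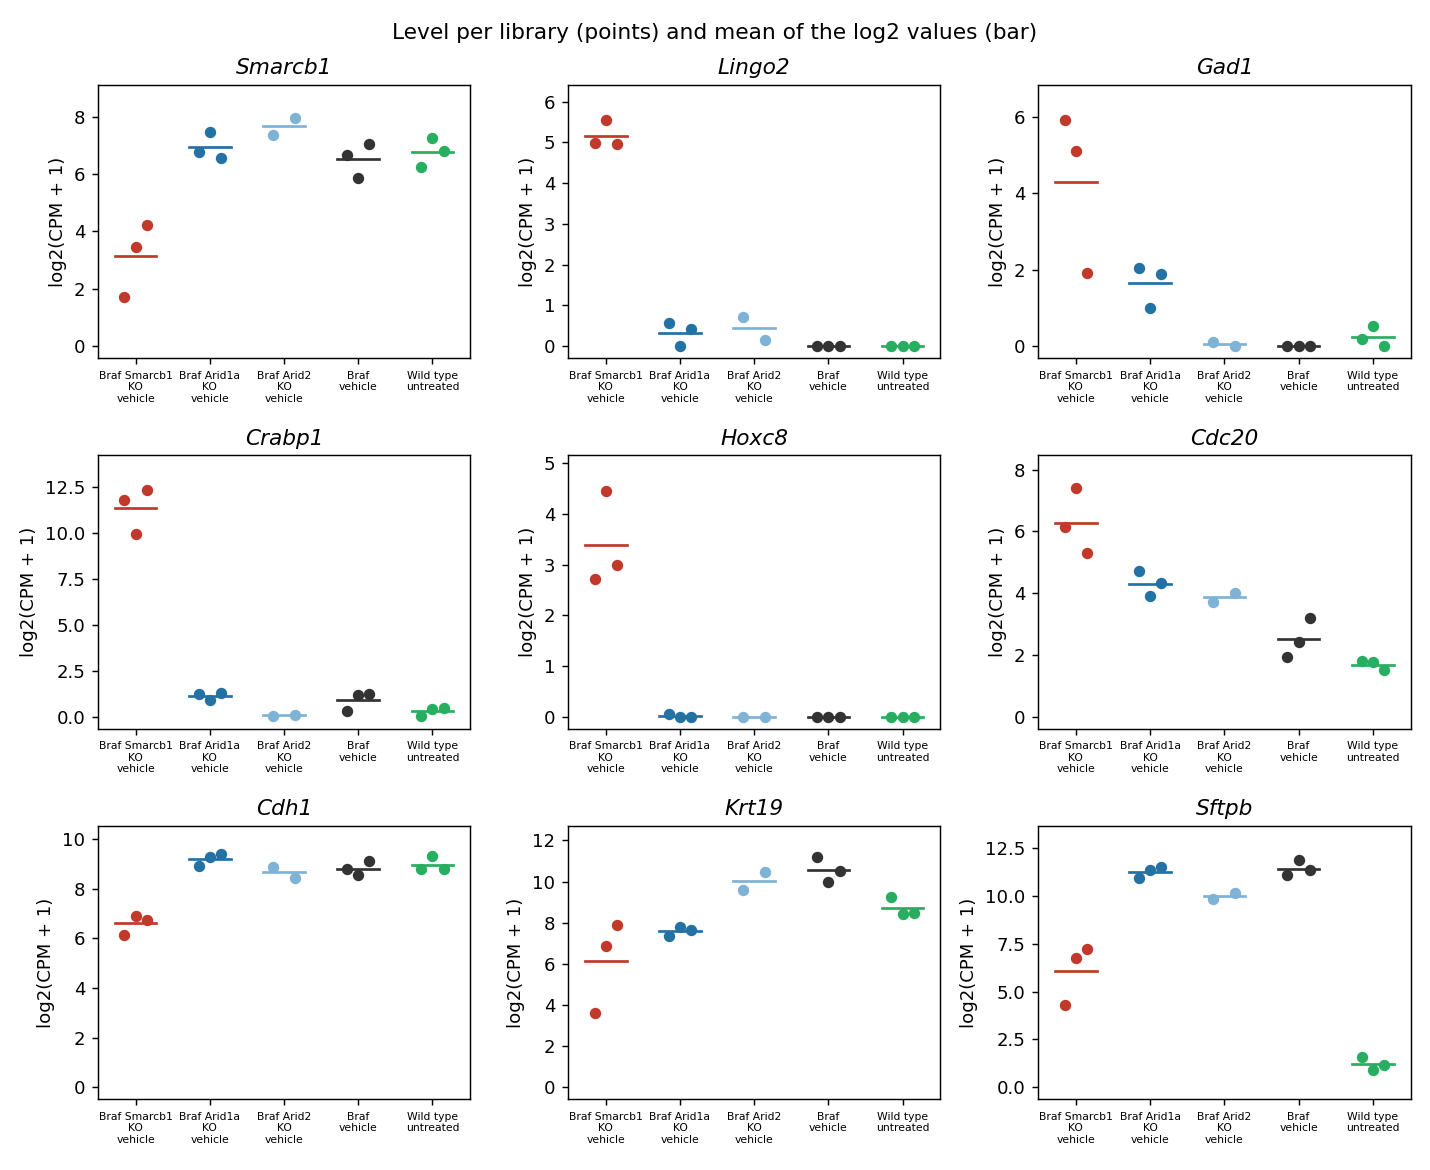
Points give log2(CPM + 1) of 9 genes in each library of the 4 tumour genotypes under vehicle and of untreated wild-type thyroid, and bars the mean of the log2 values. Smarcb1, Cdh1, Krt19 and Sftpb are lower in every Braf Smarcb1 knockout library than in every Braf library, and Lingo2, Gad1, Crabp1, Hoxc8 and Cdc20 are higher.

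Hox genes, the clustered homeobox factors that set position along the body axis, were higher as a group. Of 39 listed genes 28 passed the filter on low counts, which a gene can pass through its level in 1 group, and of those 17 were called higher and none lower. The median log2 fold change of the 28 was 3.42, against 0.03 over all genes. Hoxc8 had 5.58, 21.1 and 7.003 CPM in Braf Smarcb1 knockout and no count in Braf, at least 271-fold higher. Hoxb7 had 54, 48.01 and 38.1 CPM in Braf Smarcb1 knockout and 2.95, 1.92 and 2.52 CPM in Braf, a log2 fold change of 4.25 ± 0.47 (adjusted p = 4.50e-06). Hoxb6 had 27.05, 61.7 and 32.6 CPM against 1.58, 1.41 and 1.49 CPM, a log2 fold change of 4.76 ± 0.74 (adjusted p = 0.000104). None of these groups overlapped, and the knockout libraries lay within about a 4-fold range of each other.

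Hoxb5 had 8.72, 8.04 and 15.1 CPM in Braf Smarcb1 knockout and 1.17, 1.01 and 1.1 CPM in Braf, a log2 fold change of 3.27 ± 0.5 (adjusted p = 7.61e-05). The called genes lay in the A, B and C clusters, and the 2 measured genes of the D cluster, Hoxd8 and Hoxd9, did not pass. Genes that did not pass included Hoxb3 and Hoxb9, which were read in all groups. Hoxc9 and Hoxc10, named after their values were seen, had no count in Braf and were at least 19.8-fold and 25.4-fold higher. DESeq2 did not call Hoxc10 (adjusted p = 0.414), nor did the fits with leukocyte or fibroblast markers as a covariate (0.0675 and 0.117) or with the replicate block (0.121). The number of Hox genes called was 12 to 16 when any 1 of the 6 libraries was left out, 10 with leukocyte markers as a covariate and 8 in the 6 libraries alone.

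**Figure D3:**
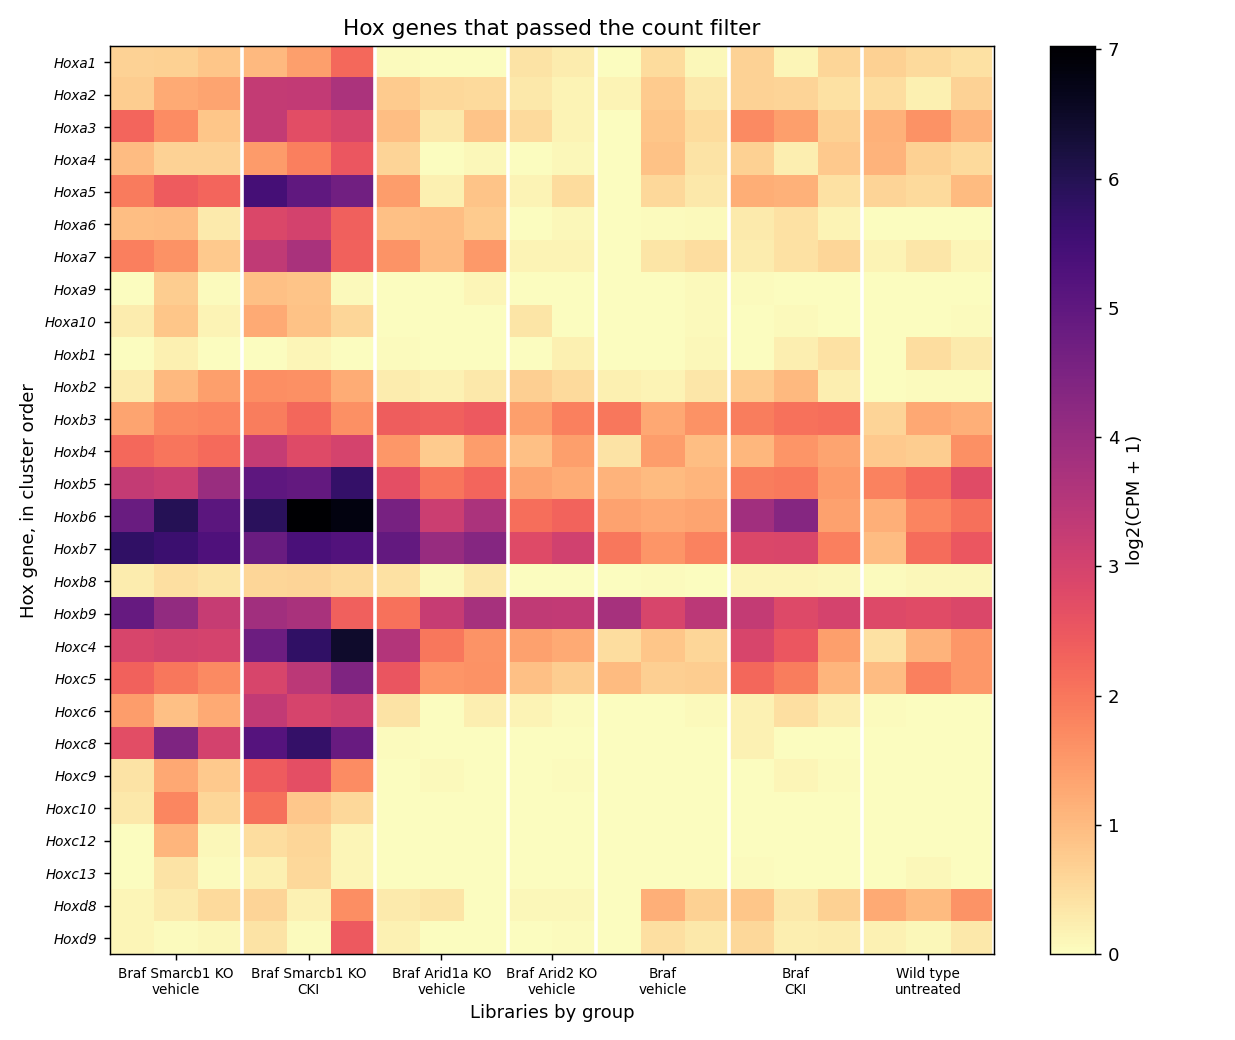
Colour gives log2(CPM + 1) of the 28 Hox genes that passed the count filter, in rows by cluster order, for every library of 7 groups in columns. Braf Smarcb1 knockout columns are darker than Braf columns for most of the B cluster and for Hoxc4 to Hoxc8, under vehicle and under CKI.

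Other factors that pattern embryos were higher in part. Of 29 measured developmental transcription factors outside the Hox and LIM families, 9 were called higher and none lower, with a median of 1.15. Dlx2, a homeobox factor of forebrain and branchial arches, had 6.23, 5.2 and 9.61 CPM in Braf Smarcb1 knockout and no count in Braf, at least 167-fold higher. Its cluster neighbour Dlx1 had 31.3, 14.1 and 11.7 CPM against 0, 0.326 and 0.0393 CPM, a log2 fold change of 7.14 ± 1.18 (adjusted p = 0.000426). Both lacked reads, or nearly so, in all Braf libraries. Pax9, a pharyngeal pouch factor, had 84.1, 36.05 and 28.9 CPM against 6.67, 6.98 and 8.53 CPM, a log2 fold change of 2.75 ± 0.48 (adjusted p = 0.000303). Msx1, a homeobox factor of limb and tooth, had 47.3, 17.3 and 17.6 CPM against 0.102, 1.99 and 3.54 CPM, a log2 fold change of 3.85 ± 1.04 (adjusted p = 0.0082). The groups did not overlap for either. Without Braf replicate 2 the number called was 5.

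Among 8 measured LIM homeobox genes, Lhx9 and Lhx2 were called higher and Isl1 lower, where the shares of all genes were 14.4% and 14.2%. Lhx2, of eye and forebrain, had 0.415, 2.16 and 7.99 CPM in Braf Smarcb1 knockout and 0, 0 and 0.197 CPM in Braf. Its log2 fold change was 5.61 ± 1.47 (adjusted p = 0.013), which became 4.17 without knockout replicate 3 (adjusted p = 0.0521) and Braf replicate 5 held all of its Braf counts. DESeq2 did not call Lhx2 (adjusted p = 0.182), nor did the fit with the fibroblast covariate (0.0531). Isl1, of motor neurons and endocrine cells, had 0.949, 2.35 and 14.6 CPM against 33.4, 12.9 and 20.01 CPM, with an overlap between knockout replicate 3 and Braf replicate 4. It was lower, at -1.89 ± 0.67 (adjusted p = 0.0384), and its call was lost without Braf replicate 2 or 5 or knockout replicate 1 or 2 (adjusted p = 0.171, 0.051, 0.115 and 0.148), while without knockout replicate 3 it was -3.74.

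Neuronal genes rose more often than they fell. Of 24 measured genes of neurofilaments, synaptic vesicles and axon growth, 12 were called higher and 3 lower, with a median of 2.4. Summed over the list, the level was 403, 337 and 296 CPM in Braf Smarcb1 knockout and 52.4, 79.9 and 102 CPM in Braf. Untreated wild type had 218, 284 and 527 CPM, so the knockout sums lay within the wild-type range. Nefl, the light neurofilament, had 47.7, 26.8 and 33.5 CPM in Braf Smarcb1 knockout against 0.0509, 0 and 0.0393 CPM in Braf, and its counts gave a ratio of 1330 (95% counting interval 367 to 11000). Nefm, the medium neurofilament, had 8.07, 7.91 and 5.43 CPM against 0.102, 0.0723 and 0.0393 CPM, a log2 fold change of 6.59 ± 1.05 (adjusted p = 0.000168). Both were even over the knockout libraries and close to 0 in Braf. Syt1, the calcium sensor of synaptic vesicles, had 25.1, 14.02 and 17.1 CPM against 0, 0 and 0.275 CPM, a log2 fold change of 7.56 ± 1.3 (adjusted p = 0.000297), and all of its Braf counts came from replicate 5. Tubb3, neuronal beta-tubulin, had 109, 108 and 52.5 CPM against 2.9, 7.16 and 9.36 CPM, a log2 fold change of 3.79 ± 0.75 (adjusted p = 0.000852). Every knockout library was above every Braf library for these genes, and 7 neuronal genes were called higher in the 6 libraries alone.

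The 3 neuronal genes called lower were Cplx2, Syn2 and Dcx. Cplx2, a regulator of vesicle release, had 3.83, 3.86 and 4.66 CPM in Braf Smarcb1 knockout and 16.8, 30.4 and 18.2 CPM in Braf, at -2.41 ± 0.46 (adjusted p = 0.000663). Syn2, a vesicle protein, had 0.148, 0.131 and 0.33 CPM against 0.815, 1.77 and 0.629 CPM, at -2.39 ± 0.72 (adjusted p = 0.0155). Dcx, of migrating neurons, had 0, 0.131 and 0.0733 CPM against 0.815, 0.977 and 0.275 CPM, at -3.28 ± 1.04 (adjusted p = 0.0214). Only 1 of the 3 was called without Braf replicate 4 or without knockout replicate 1. The adjusted p of Syn2 was 0.0801, 0.0554 and 0.0669 without Braf replicate 4 and without knockout replicates 1 and 2. That of Dcx was 0.0508, 0.0608, 0.0766 and 0.0503 without Braf replicates 2 and 4 and knockout replicates 1 and 3. Summed over 8 Schwann cell markers, the other neural list measured, the level was 69.3, 113 and 88.8 CPM in Braf Smarcb1 knockout against 308, 609 and 384 CPM in Braf. Which cells held the neuronal transcripts was not tested.

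Oncofetal genes, which are read in the embryo and in some cancers, mostly did not pass. Of 11 measured, 2 were called higher and 1 lower, at a median of 0.17, where 14.4% of all genes tested were called higher and 14.2% lower. Igf2bp3, an RNA-binding protein, had 22.2, 11.1 and 10.3 CPM in Braf Smarcb1 knockout and 2.55, 3.002 and 1.93 CPM in Braf, a log2 fold change of 2.54 ± 0.73 (adjusted p = 0.0124). Lin28b, a blocker of let-7 maturation, had 0.474, 0.0654 and 0 CPM against no count, at least 4.76-fold higher, with no count in knockout replicate 3 either. The imprinted Peg3 had 10.97, 10.7 and 9.97 CPM against 12.9, 56.9 and 38.1 CPM, at -1.77 ± 0.57 (adjusted p = 0.0233). None of the 3 was stable to the choice of libraries: Igf2bp3 lost its call without Braf replicate 5 or knockout replicate 1 (adjusted p = 0.0503 and 0.0543). Lin28b lost it without any Braf library or knockout replicate 1 or 2 (adjusted p = 0.0885, 0.113, 0.105, 0.262 and 0.0576), and DESeq2 did not call it (adjusted p = 0.36). Peg3 lost it without Braf replicate 4 or any knockout library (adjusted p = 0.117, 0.0532, 0.0642 and 0.0604).

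Polycomb subunits lay down and read repressive histone marks. Of 22 measured, 2 were called higher and 2 lower, where 14.4% of all genes tested were called higher and 14.2% lower, with a median of -0.08. Ezh2, a histone H3 lysine 27 methyltransferase, had 12.99, 23.9 and 20.9 CPM in Braf Smarcb1 knockout and 9.63, 6.84 and 7.47 CPM in Braf, a log2 fold change of 1.27 ± 0.31 (adjusted p = 0.0044). Its paralog Ezh1 had 72.3, 51.9 and 26.5 CPM against 91.03, 150.1 and 109.9 CPM, at -1.22 ± 0.33 (adjusted p = 0.00777). The groups did not overlap for either paralog. Phf19, an accessory subunit of the same complex, had 13.6, 9.61 and 1.76 CPM against 0.102, 1.52 and 0.865 CPM, a log2 fold change of 3.3 ± 0.86 (adjusted p = 0.00684). Jarid2, a further accessory subunit, had 18.2, 15.6 and 10.4 CPM against 22.2, 54.9 and 24.8 CPM, at -1.2 ± 0.39 (adjusted p = 0.0226). The call on Jarid2 was lost without Braf replicate 4 or knockout replicate 2 or 3 (adjusted p = 0.182, 0.0505 and 0.0877). All 4 calls were lost in the 6 libraries alone (adjusted p = 0.0681 for Ezh2, 0.063 for Phf19, 0.0687 for Ezh1 and 0.0995 for Jarid2). With leukocyte markers as a covariate Ezh2 (0.0726), Phf19 (0.0899) and Jarid2 (0.219) did not pass, and with fibroblast markers Ezh1 (0.0949) and Jarid2 (0.328) did not.

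Cell cycle genes were higher in Braf Smarcb1 knockout. Of 21 measured mitosis genes 20 were called higher and none lower, with a median of 2.64. Of 20 DNA replication genes 16 were called higher and none lower, with a median of 1.67. Ccna2, cyclin A, had 17.97, 59.2 and 38.8 CPM in Braf Smarcb1 knockout and 0.255, 1.12 and 1.06 CPM in Braf, a log2 fold change of 5.54 ± 0.84 (adjusted p = 8.07e-05). Cdc20, the activator of the anaphase-promoting complex, had 69.5, 168 and 38.2 CPM against 2.8, 4.3 and 8.26 CPM, a log2 fold change of 4.16 ± 0.58 (adjusted p = 3.87e-05). Cdk1, the mitotic kinase, had 258, 164 and 106 CPM against 18.4, 29.8 and 20.4 CPM, a log2 fold change of 2.95 ± 0.65 (adjusted p = 0.00212). Kif11, a spindle motor, was higher by 3.0 ± 0.73 (adjusted p = 0.00404). The groups did not overlap for these 4 genes, and knockout replicate 3 was lowest of its group for Cdc20, Cdk1 and Kif11.

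Mki67 was the mitosis gene that did not pass, at 1.87 ± 0.72 (adjusted p = 0.0552). It had 27.6, 35.8 and 15.99 CPM in Braf Smarcb1 knockout and 2.34, 14.8 and 4.56 CPM in Braf. It passed without Braf replicate 4, at 2.91 (adjusted p = 0.0145), and without knockout replicate 3 (adjusted p = 0.0463). The number of mitosis genes called was 11 without Braf replicate 2, 12 without Braf replicate 5, 12 without knockout replicate 1 and 6 with leukocyte markers as a covariate. Summed over the list, the level was 2016, 1668 and 678 CPM in Braf Smarcb1 knockout and 102, 343 and 202 CPM in Braf, again without overlap.

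Among the replication genes, Rrm2, a subunit of the enzyme that makes deoxynucleotides, had 188, 246 and 49.2 CPM in Braf Smarcb1 knockout and 4.64, 7.23 and 12.5 CPM in Braf, a log2 fold change of 4.31 ± 0.64 (adjusted p = 6.55e-05). Cdt1, which licenses origins, had 44.1, 71.4 and 32.2 CPM against 4.64, 3.69 and 9.24 CPM, a log2 fold change of 3.07 ± 0.47 (adjusted p = 8.72e-05). Cdc45, of the replicative helicase, had 94.2, 63.8 and 45.8 CPM against 6.57, 11.2 and 9.79 CPM, a log2 fold change of 2.89 ± 0.43 (adjusted p = 6.54e-05). Cyclin E2, Ccne2, was higher by 2.72 ± 0.4 (adjusted p = 6.53e-05). Every knockout library lay above every Braf library for these 4 genes. The 4 replication genes that did not pass were Mcm4, Mcm7, Pcna and Tk1. The number called was 10 without Braf replicate 2, 9 without Braf replicate 5, 8 without knockout replicate 1, 10 without knockout replicate 2 and 8 with leukocyte markers as a covariate.

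Promoters of mitosis genes are known to carry a CHR element (TTTGAA) near the start site, through which DREAM and MuvB complexes act, and upstream CCAAT boxes, so those of Cdc20 and Ccnb2 (cyclin B2, called higher at 3.22 ± 0.81, adjusted p = 0.00545) are shown. They are RefSeq sequences of build GRCm38.p6 from 250 bases before to 50 after the annotated start, Cdc20 at chr4:118437294-118437593 and Ccnb2 at chr9:70421505-70421804, both on the minus strand, printed 5′ to 3′ along the gene with TTTGAA and CCAAT in capitals. The deposited counts were made on another build, mm9.
Cdc20: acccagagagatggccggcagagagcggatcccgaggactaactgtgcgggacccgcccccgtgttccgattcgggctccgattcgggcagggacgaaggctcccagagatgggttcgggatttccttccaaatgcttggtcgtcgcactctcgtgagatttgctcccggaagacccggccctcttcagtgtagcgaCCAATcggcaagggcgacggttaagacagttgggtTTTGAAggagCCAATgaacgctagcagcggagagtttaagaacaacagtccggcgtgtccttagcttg
Ccnb2: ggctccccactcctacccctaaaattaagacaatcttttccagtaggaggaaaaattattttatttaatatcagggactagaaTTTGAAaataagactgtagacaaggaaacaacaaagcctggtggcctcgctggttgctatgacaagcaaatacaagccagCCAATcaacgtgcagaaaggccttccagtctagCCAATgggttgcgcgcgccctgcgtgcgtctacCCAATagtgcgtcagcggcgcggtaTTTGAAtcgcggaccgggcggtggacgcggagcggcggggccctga
Searched on both strands, TTTGAA stood at bases 233 to 238 of the Cdc20 window, between CCAAT at 198 and at 243, and at bases 84 and 255 of the Ccnb2 window, which held CCAAT at 164, 197 and 230. Over all 32851 promoter windows, 17.9% held TTTGAA and 37.4% held CCAAT. A match describes letters and not binding. The sequence table matched 16 of the 21 mitosis genes, too few for a share over the list.

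Regulators of G1 changed in part, with 5 of 17 called higher and 1 lower, where the shares of all genes were 14.4% and 14.2%. Cdk6, which phosphorylates the retinoblastoma protein, had 30.7, 48.5 and 36.2 CPM in Braf Smarcb1 knockout and 1.73, 5.93 and 10.5 CPM in Braf, a log2 fold change of 2.66 ± 0.5 (adjusted p = 0.000594). E2f1, a transcription factor that drives S phase, had 43.5, 26.5 and 14.3 CPM against 3.67, 9.84 and 9.75 CPM, a log2 fold change of 1.86 ± 0.47 (adjusted p = 0.00511). Neither pair of groups overlapped. Cyclin D2, Ccnd2, was higher by 0.96 ± 0.28 (adjusted p = 0.0134, or 0.0638 without knockout replicate 2). E2f3 was higher by 1.27 ± 0.39 (adjusted p = 0.0176, or 0.0853 without Braf replicate 4 and 0.104 without knockout replicate 2). The fifth was cyclin D1, Ccnd1, which is also on the MAPK list. Cyclin D3, Ccnd3, was lower, at -1.28 ± 0.43 (adjusted p = 0.0296). That call was lost without Braf replicate 2 or 5 or knockout replicate 1 or 2 (adjusted p = 0.0859, 0.108, 0.114 and 0.069). The inhibitors Cdkn2a and Cdkn1a, named after their values were seen, did not pass. Cdkn2a had 5.22, 3.5 and 3.19 CPM against 0.917, 0.977 and 1.49 CPM, at 1.81 ± 0.73, and Cdkn1a was at -0.34 ± 0.4. The number called higher was 3 without Braf replicate 4 or without knockout replicate 2.

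MAPK output genes, which ERK induces, were higher in part. Of 20 measured, 7 were called higher and 2 lower, with a median of 0.53. Of all genes tested, 14.4% were called higher and 14.2% lower. Spry4, a feedback inhibitor of receptor signalling, had 225, 184 and 113 CPM in Braf Smarcb1 knockout and 7.69, 17.9 and 21.98 CPM in Braf, a log2 fold change of 3.46 ± 0.48 (adjusted p = 3.42e-05). Spred3, a related inhibitor, had 10.5, 10.98 and 6.78 CPM against 0.611, 1.19 and 1.57 CPM, a log2 fold change of 3.06 ± 0.57 (adjusted p = 0.000508). Spry1, another Sprouty, had 67.9, 44.3 and 74.4 CPM against 8.51, 19.2 and 18.2 CPM, a log2 fold change of 2.02 ± 0.45 (adjusted p = 0.00236). For all 3 the lowest knockout library was above the highest Braf library.

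Spred2 was higher by 1.39 ± 0.37 (adjusted p = 0.00704, or 0.0803 without knockout replicate 2). The other 3 called higher were Epha2, Ccnd1 and Myc, and Myc, at 1.22 ± 0.45 (adjusted p = 0.0442), lost its call without any Braf library or knockout replicate 1 or 2 (adjusted p = 0.0804, 0.146, 0.0584, 0.188 and 0.0845). The Ets factor Etv1 had 25.1, 20.5 and 57.8 CPM in Braf Smarcb1 knockout and 79.2, 121 and 124 CPM in Braf, at -1.65 ± 0.32 (adjusted p = 0.000639). The receptor Epha4 had 1.48, 3.27 and 8.62 CPM against 22.1, 30.5 and 29.5 CPM, at -2.62 ± 0.46 (adjusted p = 0.000335). Both were lower in every knockout library. Dusp4, Dusp5, Dusp6, Etv4, Etv5, Fosl1 and Egr1 did not pass. The number called higher was 4 without Braf replicate 2 or 4 and 3 without knockout replicate 2, and the number called lower was 4 without Braf replicate 4.

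Interferon-stimulated genes were higher in part. Of 30 measured, 15 were called higher and 1 lower, with a median of 0.88, while the inducers Irf7, Irf9 and Irf1 did not pass. Summed over the list, the level was 1952, 1600 and 1264 CPM in Braf Smarcb1 knockout and 707, 906 and 806 CPM in Braf. Untreated wild type had 1413, 1256 and 1703 CPM, which overlapped the knockout and lay above Braf. Oasl2, of the oligoadenylate synthetase-like family, had 139.8, 137 and 104 CPM in Braf Smarcb1 knockout and 25.3, 35.4 and 26.4 CPM in Braf, a log2 fold change of 2.13 ± 0.32 (adjusted p = 6.77e-05). Dhx58, a sensor of viral RNA, had 68.2, 21.4 and 75.02 CPM against 8.91, 12.05 and 11.05 CPM, a log2 fold change of 2.36 ± 0.37 (adjusted p = 9.82e-05). Bst2, which tethers budding virions, had 207, 127 and 101 CPM against 39.99, 40.01 and 44.5 CPM, a log2 fold change of 1.8 ± 0.37 (adjusted p = 0.00127). Every knockout library was above every Braf library. Usp18, which removes the ubiquitin-like modifier Isg15, was higher by 1.76 ± 0.35 (adjusted p = 0.000882). The number called higher was 11 to 14 when any 1 library was left out, and 8 with leukocyte markers as a covariate. Ifi44 was the gene called lower, at -1.75 ± 0.57 (adjusted p = 0.0243). Its call was lost without Braf replicate 4 or 5 or knockout replicate 1 or 2 (adjusted p = 0.0582, 0.0568, 0.0967 and 0.109), and it was -2.83 without knockout replicate 3. The leukocyte marker sums given above were lower in the knockout libraries, and which cells carried the rise of these genes was not tested.

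The binding site of the interferon-activated factor ISGF3, an ISRE, holds a pair of GAAA repeats, and the promoters of Ifit1 and Isg15, both called higher (2.09 ± 0.44, adjusted p = 0.00142, and 1.62 ± 0.37, adjusted p = 0.00266), are shown for that motif. They are RefSeq windows of the same build and length, Ifit1 at chr19:34640639-34640938 on the plus strand and Isg15 at chr4:156200769-156201068 on the minus strand, printed 5′ to 3′ along the gene. Capitals mark GAAANNGAAA on either strand, where overlapping matches run together.
Ifit1: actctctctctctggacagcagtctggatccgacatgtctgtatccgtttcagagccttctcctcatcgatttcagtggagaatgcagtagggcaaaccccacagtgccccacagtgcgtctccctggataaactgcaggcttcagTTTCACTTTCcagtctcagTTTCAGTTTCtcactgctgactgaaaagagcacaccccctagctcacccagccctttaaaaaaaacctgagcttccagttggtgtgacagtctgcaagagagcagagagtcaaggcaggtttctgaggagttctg
Isg15: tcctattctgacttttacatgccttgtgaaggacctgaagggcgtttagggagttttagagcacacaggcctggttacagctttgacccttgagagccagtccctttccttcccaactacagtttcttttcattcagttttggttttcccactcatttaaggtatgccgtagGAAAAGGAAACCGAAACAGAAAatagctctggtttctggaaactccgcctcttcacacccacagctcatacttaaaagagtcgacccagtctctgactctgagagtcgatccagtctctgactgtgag
In Ifit1 the motif was read on the opposite strand at bases 147 to 156 and 166 to 175. In Isg15 it was read on the gene's strand in 3 overlapping matches from base 173 to 194. Of all 32851 windows 3.44% held it. The table matched 22 of 30 interferon genes, too few for a share over the list.

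Class II antigen presentation genes, which serve T helper cells, were lower. Of 11 measured, 8 were called lower and none higher, with a median of -1.59. Cd74, the invariant chain, had 172, 361 and 511 CPM in Braf Smarcb1 knockout and 1251, 2739 and 1554 CPM in Braf, at -2.41 ± 0.46 (adjusted p = 0.000691). H2-DMb1, which loads peptides, had 18.7, 33.3 and 39.3 CPM against 87.7, 102 and 66.5 CPM, at -1.49 ± 0.31 (adjusted p = 0.00115). Every knockout library was below every Braf library. H2-DMb2 was at -2.12 ± 0.61 (adjusted p = 0.0123, or 0.0559 and 0.0618 without knockout replicates 1 and 2). H2-DMb1 and H2-DMb2 are close copies, between which reads may be split. H2-DMa was at -1.33 ± 0.39 (adjusted p = 0.0132, or 0.0523 and 0.0601 without Braf replicate 4 and knockout replicate 2). Macrophages and other leukocytes, whose marker sums were lower in the same libraries, also make class II, and their part in the result was not tested. The number called was 5 without Braf replicate 2, 3 without Braf replicate 4, 3 without knockout replicate 1, 3 without knockout replicate 2 and 1 with leukocyte markers as a covariate.

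Thyroid differentiation genes were lower in part in Braf Smarcb1 knockout. Braf and untreated wild type were not compared by a test. Their means were 417 and 104592 CPM for Tg, and 8.86 and 10.4 CPM for Nkx2-1. Of 22 measured, 12 were called lower and 1 higher, with a median of -1.63. Tg, thyroglobulin, had 14.2, 114 and 71.4 CPM in Braf Smarcb1 knockout, 161, 894 and 196 CPM in Braf and 99412, 155494 and 58871 CPM in untreated wild type. Its log2 fold change between the tumours was -2.65 ± 0.69 (adjusted p = 0.00636), and -1.45 without Braf replicate 4, where the call was lost (adjusted p = 0.0944). It was also lost with leukocyte (0.113) or fibroblast markers (0.12) as a covariate and in the 6 libraries alone (0.087). Cdh16, a thyroid and kidney cadherin, had 0.504, 5.88 and 3.81 CPM in Braf Smarcb1 knockout and 33.5, 50.03 and 39.7 CPM in Braf, at -3.6 ± 0.59 (adjusted p = 0.000158). The TSH receptor Tshr had 1.45, 3.14 and 5.35 CPM against 14.5, 17.4 and 15.9 CPM, at -2.27 ± 0.43 (adjusted p = 0.000594). The follicular cell factor Pax8 had 102, 78.01 and 53.8 CPM against 204, 221 and 196 CPM, at -1.41 ± 0.36 (adjusted p = 0.0056). No library of these 4 genes overlapped between the tumour groups. Pax8 and Nkx2-1 were read in every library.

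Iyd, which recycles iodide, was lower at -2.95 ± 0.55 (adjusted p = 0.000504). The anion carrier Slc26a7 was lower at -2.96 ± 0.65 (adjusted p = 0.00196) and the transcription factor Glis3 at -2.66 ± 0.59 (adjusted p = 0.00203). These 3 kept their call without any 1 library. Foxe1 was at -1.69 ± 0.59 (adjusted p = 0.0352), with 0.072, 0.0689, 0.056, 0.123 and 0.122 without Braf replicates 2, 4 and 5 and knockout replicates 1 and 2, and its fold change was -2.93 without knockout replicate 3.

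Duoxa1, a maturation factor of the thyroid oxidase, was at -1.81 ± 0.67 (adjusted p = 0.046), with 0.0549, 0.221, 0.159 and 0.0926 without Braf replicates 2 and 4 and knockout replicates 1 and 3. The hormone receptor Thra was at -0.88 ± 0.33 (adjusted p = 0.0474), and leaving out any 1 library ended its call, with adjusted p from 0.0532 to 0.126. Nkx2-1 had 2.55, 6.67 and 13.7 CPM in Braf Smarcb1 knockout and 6.11, 10.7 and 9.71 CPM in Braf, and did not pass (-0.21 ± 0.43). The others that did not pass were Hhex (-0.82), Duox1 (-1.77), Duox2 (-1.56), Duoxa2 (-1.21), Dio1 (-0.44), Dio2 (-0.79), Slc26a4 (0.14) and Thrb (-0.93). Hhex passed without knockout replicate 3 (adjusted p = 0.030) and Thrb without Braf replicate 2 (adjusted p = 0.0385). The number of thyroid genes called lower was 8 to 11 when any 1 library was left out, 7 with either the leukocyte or the fibroblast markers as a covariate, and 5 in the 6 libraries alone.

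Slc5a5, the sodium-iodide symporter, was the one thyroid gene called higher. It had 36.5, 10.7 and 30.6 CPM in Braf Smarcb1 knockout, 0.102, 0.253 and 3.26 CPM in Braf and 73.9, 280.2 and 114 CPM in wild type. Its log2 fold change between the tumours was 4.4 ± 1.17 (adjusted p = 0.00749), and 7.04 without Braf replicate 5, the only Braf library above 1 CPM. The call was lost with leukocyte markers as a covariate (2.94, adjusted p = 0.111) and with fibroblast markers (3.56, adjusted p = 0.109).

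Epithelial genes were lower. Of 23 measured genes of cell junctions and their regulators, 15 were called lower and 3 higher, with a median of -2.25. Cdh1, E-cadherin, had 68.8, 119 and 107 CPM in Braf Smarcb1 knockout and 435, 368 and 548 CPM in Braf, at -2.2 ± 0.31 (adjusted p = 3.78e-05). Esrp1, an epithelial splicing factor, had 5.13, 7.09 and 9.42 CPM against 101, 72.9 and 50.7 CPM, at -3.37 ± 0.39 (adjusted p = 6.20e-06). Marveld2, tricellulin, had 1.1, 4.64 and 6.82 CPM against 49.3, 37.4 and 31.6 CPM, at -3.24 ± 0.56 (adjusted p = 0.000256). All knockout libraries were below all Braf libraries, and cingulin, Cgn, was lower likewise, at -2.32 ± 0.4 (adjusted p = 0.000239). Those called higher included Cldn1, a claudin, at 2.88 ± 0.55 (adjusted p = 0.000695), and Pkp2, a desmosomal plaque protein, at 2.24 ± 0.52 (adjusted p = 0.00313). Epcam did not pass (-0.1 ± 0.85), and 12 to 16 junction genes were called lower when any 1 library was left out.

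Keratins, the intermediate filaments of epithelia, were lower, with 7 of 15 called lower, none higher and a median of -2.08. Krt18 had 206, 349 and 839 CPM in Braf Smarcb1 knockout and 10555, 2789.8 and 4732 CPM in Braf, at -3.7 ± 0.63 (adjusted p = 0.000246). Its partner Krt8 had 451, 536 and 722 CPM against 3767, 1116 and 3318 CPM, at -2.26 ± 0.52 (adjusted p = 0.00275). Krt19 had 11.2, 117 and 234 CPM against 2309.7, 993 and 1461 CPM, at -3.72 ± 0.73 (adjusted p = 0.000828). No library overlapped, and knockout replicate 1 was lowest for all 3. Krt80 was lower at -2.8 ± 0.48 (adjusted p = 0.000244). The number called was 4 without Braf replicate 2 or without knockout replicate 1.

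Of 15 measured genes of the mesenchymal transition, 3 were called higher and 3 lower, where 14.4% of all genes tested were called higher and 14.2% lower, with a median of 0.26. Vim, the mesenchymal filament vimentin, had 5542, 4889 and 3902 CPM in Braf Smarcb1 knockout and 338, 641 and 1236 CPM in Braf, a log2 fold change of 2.69 ± 0.55 (adjusted p = 0.00115). S100a4, a calcium-binding protein of motile cells, had 1971, 1105 and 1136 CPM against 129, 105 and 104 CPM, a log2 fold change of 3.64 ± 0.69 (adjusted p = 0.000609). Cdh2, N-cadherin, had 19.5, 50.04 and 16.4 CPM against 0.0509, 1.16 and 1.38 CPM, a log2 fold change of 5.03 ± 0.86 (adjusted p = 0.000242). All knockout libraries were above all Braf libraries for these genes.

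Called lower were the matrix proteins Tnc and Fn1 and the hyaluronan receptor Cd44. Tnc, tenascin C, had 5.87, 10.7 and 13.8 CPM in Braf Smarcb1 knockout and 45.8, 423 and 212 CPM in Braf, at -4.49 ± 0.88 (adjusted p = 0.000811). Fn1, fibronectin, had 176, 70.7 and 86.9 CPM against 371, 3637 and 1411 CPM, at -4.02 ± 1.01 (adjusted p = 0.00514). Both were highest in Braf replicate 4, the library with the highest fibroblast marker sum. With fibroblast markers as a covariate Fn1 was at -1.79 (adjusted p = 0.174) and lost its call, while Tnc kept its call. The call on Fn1 was also lost with leukocyte markers (adjusted p = 0.111) and with the replicate block (0.051). Cd44 was at -0.87 ± 0.26 (adjusted p = 0.0168, or 0.0828 without knockout replicate 3). The transcription factors Zeb1, Zeb2, Snai1, Snai2, Twist1 and Prrx1 did not pass. With fibroblast markers as a covariate 6 of the 15 were called higher and 1 lower, and with leukocyte markers 4 and 1.

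Surfactant and lung-type genes, which share the factor Nkx2-1 with thyroid in development, were lower. Their summed level was 899, 7357 and 9622 CPM in Braf Smarcb1 knockout, 96718, 45306 and 62055 CPM in Braf and 971, 1084 and 1870.4 CPM in wild type. Of 16 measured, 7 were called lower and none higher, with a median of -2.19. Sftpb, surfactant protein B, had 18.9, 107 and 147 CPM in Braf Smarcb1 knockout, 2196, 3751 and 2595 CPM in Braf and 1.99, 0.845 and 1.25 CPM in wild type, with a log2 fold change of -4.97 ± 0.81 between the tumours (adjusted p = 0.000151). Sftpd, surfactant protein D, had 123, 1128 and 1466 CPM in Braf Smarcb1 knockout and 19354, 7419 and 11426 CPM in Braf, at -3.81 ± 0.87 (adjusted p = 0.00252). Napsa, the protease that processes surfactant protein B, had 34.04, 148 and 422 CPM against 4291, 3128 and 2322 CPM, at -4.01 ± 0.62 (adjusted p = 9.53e-05). The mucin Muc1 was lower at -3.17 ± 0.71 (adjusted p = 0.00227). Groups did not overlap, and knockout replicate 1 was lowest for all 4. With leukocyte markers as a covariate 4 genes of the list were called.

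Acute phase genes were lower, with 6 of 14 called lower, none higher and a median of -1.92. Lbp, which binds lipopolysaccharide, had 4.33, 29.4 and 95.7 CPM in Braf Smarcb1 knockout and 1241, 951 and 845 CPM in Braf, at -4.55 ± 0.81 (adjusted p = 0.000347). Il6, the cytokine that drives this response in liver, had 3.74, 17.6 and 21.4 CPM against 147, 207 and 132 CPM, at -3.51 ± 0.7 (adjusted p = 0.000888). Complement C3 was at -3.68 ± 0.76 (adjusted p = 0.00122) and ceruloplasmin, Cp, at -3.0 ± 0.46 (adjusted p = 9.27e-05). Each was lower in every knockout library than in every Braf library.

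Genes of sterol and fatty acid synthesis were higher in part, with 10 of 21 called higher, 2 lower and a median of 1.07. Summed over the list, the level was 2620, 2433 and 1150 CPM in Braf Smarcb1 knockout and 1388, 1736 and 1412 CPM in Braf. Knockout replicate 3 was thus below every Braf library for the sum. Sqle, squalene epoxidase, had 191, 196 and 44.9 CPM in Braf Smarcb1 knockout and 24.3, 19.4 and 29.4 CPM in Braf, a log2 fold change of 2.56 ± 0.47 (adjusted p = 0.000436). Sc4mol, a sterol methyl oxidase, had 526, 355 and 310.1 CPM against 249, 131 and 139 CPM, a log2 fold change of 1.2 ± 0.25 (adjusted p = 0.0015). Idi1, of isoprenoid synthesis, was higher by 1.32 ± 0.3 (adjusted p = 0.00253), and Elovl6, a fatty acid elongase, by 1.28 ± 0.3 (adjusted p = 0.00312). The groups did not overlap for any of these. Fdft1, squalene synthase, was lower at -0.93 ± 0.22 (adjusted p = 0.00346, or 0.0752 without Braf replicate 2). Fasn, fatty acid synthase, was lower at -1.84 ± 0.51 (adjusted p = 0.00947, or 0.0564 without Braf replicate 4). The number called higher was 6 without Braf replicate 5 and 5 without knockout replicate 2, 3 were called in the 6 libraries alone, and the regulators Srebf1 and Srebf2 did not pass.

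The 10 largest falls were led by Tnmd, tenomodulin of tendon and other connective tissue, with 0.178, 0.261 and 0.22 CPM in Braf Smarcb1 knockout and 4.28, 50.1 and 27.9 CPM in Braf (log2 fold change -6.94 ± 0.98, adjusted p = 4.25e-05). Dcpp3, a secreted protein of salivary glands, had 0.563, 3.82 and 49.7 CPM against 2409, 1262 and 666 CPM, at -6.33 ± 1.69 (adjusted p = 0.00797). Psca, an epithelial surface antigen, had 1.75, 7.71 and 20.4 CPM against 636, 202 and 311 CPM, at -5.27 ± 1.29 (adjusted p = 0.0043). Dcpp3 belongs to a family of near-identical genes, so its count is uncertain. Dcpp3 and Psca were highest in Braf replicate 2, while Tnmd was highest in Braf replicate 4. Among the others, Agtr2 (-6.24), C1qtnf3 (-5.92), Cilp (-5.4), Pamr1 (-5.19), Angptl1 (-5.19) and Scube2 (-5.38) were each highest in Braf replicate 4, the library with the highest fibroblast sum. C1qtnf3 was at -3.9 without Braf replicate 4. With fibroblast markers as a covariate the calls were lost for Agtr2 (-2.78, adjusted p = 0.211), C1qtnf3 (-1.79, adjusted p = 0.0747), Cilp (-1.52, adjusted p = 0.0652) and Angptl1 (-1.81, adjusted p = 0.165). With leukocyte markers they were lost for Agtr2 (adjusted p = 0.42), Cilp (0.158) and Angptl1 (0.118).

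Markers of stromal cells, macrophages and Schwann cells were lower in Braf Smarcb1 knockout, with large differences among the Braf libraries. No T cell or neutrophil marker was called by edgeR. Called lower were 7 of 10 fibroblast markers (median -2.81), 7 of 10 endothelial markers (-2.41), 7 of 10 markers of smooth muscle and pericytes (-2.26), 8 of 10 macrophage markers (-2.3) and 5 of 8 Schwann cell markers (-2.15), and none of these was called higher. No marker on these 5 lists was at 0 in all libraries of a group. With leukocyte or fibroblast markers as a covariate, 2 fibroblast markers were called lower. The fibroblast covariate is the mean log2 level of these same markers, so loss of their calls with it is no test. The fibroblast matrix protein Dcn had 147, 103 and 299.96 CPM in Braf Smarcb1 knockout and 399.9, 2877 and 1392 CPM in Braf, at -3.09 ± 0.6 (adjusted p = 0.000765). Lum, a related proteoglycan, had 15.8, 32.3 and 117 CPM against 107, 1485 and 550.3 CPM, at -3.7 ± 0.85 (adjusted p = 0.00286). For Dcn every knockout library was below every Braf library, whereas Lum overlapped between knockout replicate 3 and Braf replicate 2. Dpt was at -4.92 ± 0.91 (adjusted p = 0.000502), and Fap at -3.45 ± 0.72 (adjusted p = 0.00136) or -2.14 without Braf replicate 4. Col1a1, which defines the list, had 82.3, 108 and 52.8 CPM against 27.9, 1110.3 and 265 CPM and did not pass (-2.53 ± 1.04, adjusted p = 0.0724), with an overlap, and passed without Braf replicate 2 (-2.98, adjusted p = 0.032).

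The endothelial list was carried by Braf replicates 4 and 5, with sums over the list of 139, 82.6 and 106 CPM in Braf Smarcb1 knockout and 35.3, 750.2 and 325 CPM in Braf. Vwf, von Willebrand factor, had 0.771, 1.21 and 2.27 CPM in Braf Smarcb1 knockout and 2.29, 51.8 and 22.96 CPM in Braf, at -4.18 ± 0.79 (adjusted p = 0.000594), and Esam was at -3.17 ± 0.72 (adjusted p = 0.00258). Without Braf replicate 4 only 2 of the 10 endothelial markers were called, without knockout replicate 1 there were 4, and Tie1 (-3.23 ± 0.86, adjusted p = 0.00802) and Eng (-2.69 ± 0.83, adjusted p = 0.019) lost their call without Braf replicate 4 (adjusted p = 0.0531 and 0.0934), Eng also without knockout replicate 1 (adjusted p = 0.0748). Pecam1, which defines endothelium, had 112, 43.9 and 29.1 CPM against 7.79, 226 and 73.8 CPM and did not pass (-0.74 ± 0.77). Braf replicate 2 lay below every knockout library for the list's sum.

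Macrophage genes were lower with Cd68, a lysosomal marker, at 18, 19.2 and 35.97 CPM in Braf Smarcb1 knockout and 132, 153 and 118 CPM in Braf (-2.46 ± 0.49, adjusted p = 0.000934). The groups did not overlap. Emr1, the F4/80 antigen, was at -2.31 ± 0.72 (adjusted p = 0.019), Cd163, a scavenger receptor, at -3.13 ± 0.83 (adjusted p = 0.00769) and Marco, another, at -4.85 ± 1.45 (adjusted p = 0.0154). Csf1r, the receptor that macrophages need, was at -2.29 ± 0.8 (adjusted p = 0.0363). Without Braf replicate 4 the calls on Emr1, Cd163 and Csf1r were lost (adjusted p = 0.0773, 0.0582 and 0.15), as they were for Emr1 and Csf1r without knockout replicate 1 (0.0734 and 0.102). Marco lost its call without knockout replicate 2 (0.0647), and Csf1r without knockout replicates 2 and 3 (0.0665 and 0.0892). Of the 10 macrophage markers, 2 were called without Braf replicate 4, 3 without knockout replicate 1 and 3 without knockout replicate 2. The pan-leukocyte gene Ptprc did not pass (-1.85 ± 0.72, adjusted p = 0.0571), and passed without knockout replicate 3 (adjusted p = 0.0399).

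Smooth muscle and pericyte markers included Acta2, smooth muscle actin, with 5.6, 25.3 and 17.6 CPM in Braf Smarcb1 knockout and 74.7, 376 and 245 CPM in Braf (-3.84 ± 0.7, adjusted p = 0.00044). Tagln was at -3.88 ± 0.67 (adjusted p = 0.000263), Actg2 at -4.92 ± 0.92 (adjusted p = 0.000532) and Notch3 at -2.46 ± 0.68 (adjusted p = 0.010, or 0.0709 without Braf replicate 4). The number called was 4 without Braf replicate 4, knockout replicate 1 or knockout replicate 3. Of the Schwann cell markers, Mbp, myelin basic protein, had 2.31, 19.4 and 12.8 CPM in Braf Smarcb1 knockout and 66.8, 122 and 118 CPM in Braf, at -3.15 ± 0.48 (adjusted p = 8.14e-05). Pmp22 was at -2.19 ± 0.3 (adjusted p = 2.97e-05) and S100b at -3.41 ± 0.75 (adjusted p = 0.00205). Acta2 and Mbp did not overlap between the groups.

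**Figure D4:**
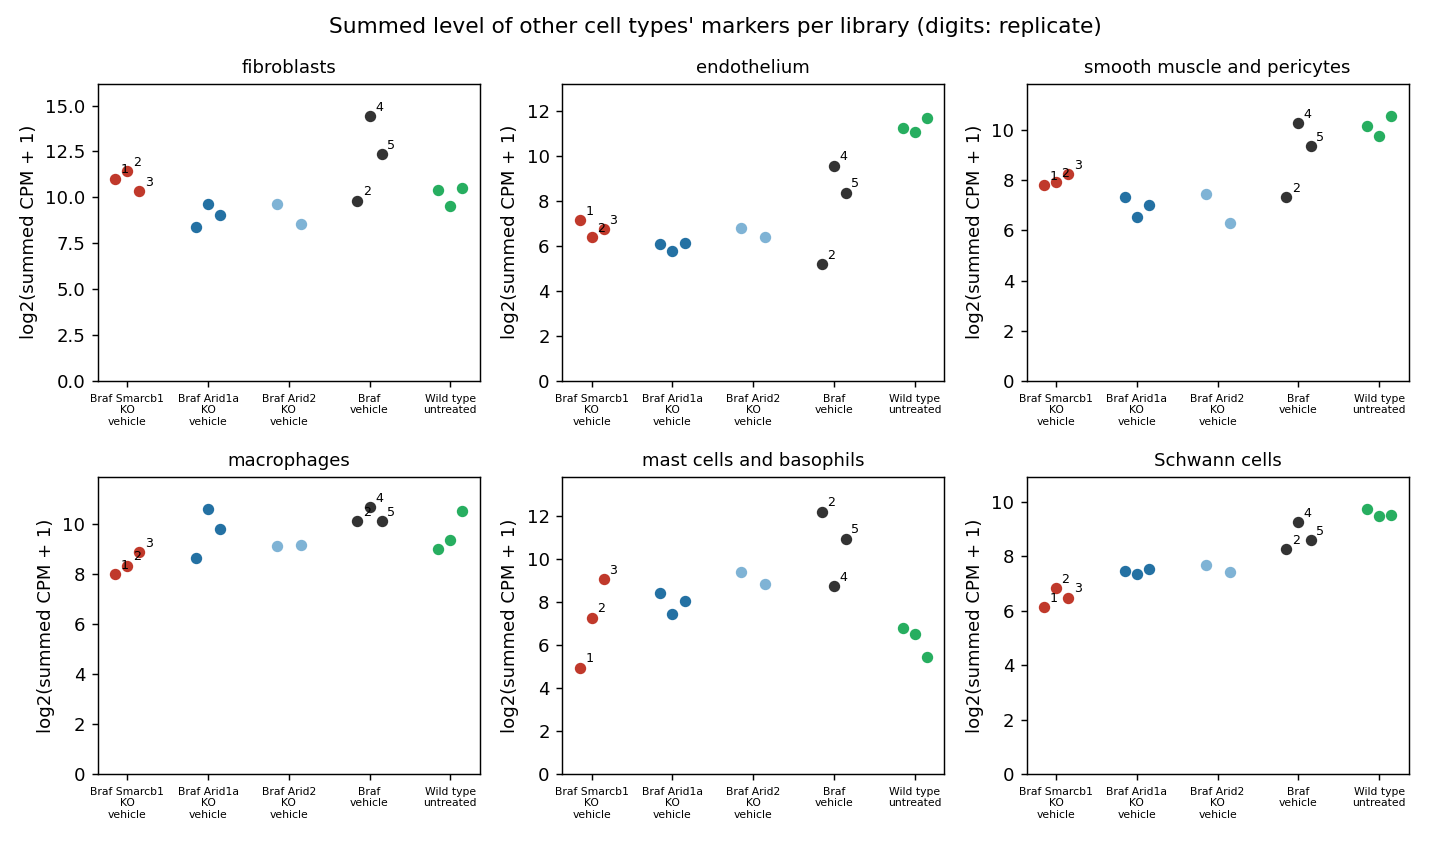
Points give log2 of the summed CPM plus 1 of 6 marker lists in each library, for the 4 tumour genotypes under vehicle and untreated wild-type thyroid, with the replicate number beside points of Braf Smarcb1 knockout and Braf. The Braf libraries spread widely, from 907.9 to 21989 CPM for fibroblast markers, while macrophage and Schwann cell sums are lower in every Braf Smarcb1 knockout library than in every Braf library.

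Direct comparisons with the other SWI/SNF knockouts under vehicle asked what differed by the subunit lost. They use the same Braf Smarcb1 knockout libraries as above and are therefore not independent of the comparison with Braf. Against Braf Arid1a knockout, 2562 genes (13.5%) were called higher and 2592 (13.6%) lower in Braf Smarcb1 knockout. Against Braf Arid2 knockout, with 2 libraries, 1442 (7.58%) were called higher and 1718 (9.03%) lower. The 3160 calls against Braf Arid2 knockout became 1452 without its replicate 2 and 1657 without its replicate 4.

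Cell cycle genes were higher in Braf Smarcb1 knockout than in either other knockout. Of 21 mitosis genes, 18 were called higher against Braf Arid1a knockout and 19 against Braf Arid2 knockout, and of 20 replication genes 13 were called higher in each. Cdc20 had 69.5, 168 and 38.2 CPM in Braf Smarcb1 knockout, 25.1, 13.9 and 19.2 CPM in Braf Arid1a knockout and 12.2 and 15.3 CPM in Braf Arid2 knockout. Its log2 fold change was 2.24 ± 0.53 against Braf Arid1a knockout (adjusted p = 0.00319) and 2.74 ± 0.64 against Braf Arid2 knockout (adjusted p = 0.00499). The knockouts of Arid1a and Arid2 lay below all Braf Smarcb1 knockout libraries.

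Developmental and neuronal genes differed too. Of 28 Hox genes, 9 were called higher against Braf Arid1a knockout and 15 against Braf Arid2 knockout, and of 24 neuronal genes 14 and 10. Hoxc8 had 5.58, 21.1 and 7.003 CPM in Braf Smarcb1 knockout, 0.0317, 0 and 0 CPM in Braf Arid1a knockout and no count in Braf Arid2 knockout (adjusted p = 6.65e-05 and 0.000644). Hoxb7 was read in every knockout, with 54, 48.01 and 38.1 CPM in Braf Smarcb1 knockout, 29.2, 15.1 and 18.9 CPM in Braf Arid1a knockout and 5.9 and 7.32 CPM in Braf Arid2 knockout. Braf Smarcb1 knockout was higher by 1.15 ± 0.42 (adjusted p = 0.0438) and 2.82 ± 0.52 (adjusted p = 0.000746) on the log2 scale. For Nefl, with 47.7, 26.8 and 33.5 CPM in Braf Smarcb1 knockout, 0, 0.204 and 0.576 CPM in Braf Arid1a knockout and 1.53 and 10.7 CPM in Braf Arid2 knockout, the difference passed against Braf Arid1a knockout (7.07 ± 0.99, adjusted p = 4.24e-05) and did not pass against Braf Arid2 knockout (2.56 ± 0.92, adjusted p = 0.0656).

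Thyroid genes were lower than in either other knockout, with 13 of 22 called lower against Braf Arid1a knockout and 12 against Braf Arid2 knockout. Tshr had 1.45, 3.14 and 5.35 CPM in Braf Smarcb1 knockout, 148, 264 and 145 CPM in Braf Arid1a knockout and 15.9 and 20 CPM in Braf Arid2 knockout. The log2 fold changes of Braf Smarcb1 knockout over them were -5.81 ± 0.5 (adjusted p = 7.58e-08) and -2.44 ± 0.46 (adjusted p = 0.00089). Slc5a5 was higher than in both, by 4.08 ± 1.14 (adjusted p = 0.0101) and 4.21 ± 1.37 (adjusted p = 0.0373). Epithelial junction genes had 15 of 23 called lower in each comparison, and Cdh1 was at -2.59 ± 0.31 (adjusted p = 3.96e-06) and -2.06 ± 0.33 (adjusted p = 0.000209). Interferon-stimulated genes had 20 of 30 called higher against Braf Arid1a knockout and 18 against Braf Arid2 knockout, with Oasl2 at 3.68 ± 0.34 (adjusted p = 1.67e-07) and 3.31 ± 0.4 (adjusted p = 1.76e-05).

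Stromal markers were also measured in these comparisons. Of 10 fibroblast markers, 1 was called higher and none lower against Braf Arid1a knockout, and none was called by edgeR against Braf Arid2 knockout, where 1 was higher at an unadjusted p under 0.05 and 1 by DESeq2. The fibroblast sums were 2075, 2737 and 1289 CPM in Braf Smarcb1 knockout, 338, 795 and 526 CPM in Braf Arid1a knockout and 792 and 373 CPM in Braf Arid2 knockout. The Smarcb1 libraries thus held more of these transcripts than the other knockouts and less than Braf replicates 4 and 5. Macrophage markers had 2 of 10 called lower against Braf Arid1a knockout and none by edgeR or DESeq2 against Braf Arid2 knockout, where 2 were lower at an unadjusted p under 0.05. Keratins had 3 of 15 called lower against Braf Arid1a knockout and 4 against Braf Arid2 knockout.

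The same genotypes under CKI gave a repeat of the contrast in libraries that the vehicle comparison did not use. A difference in preparation between the genotypes could be shared by both treatments, and the repeat cannot tell it apart from genotype. Under CKI 1496 genes (7.87%) were called higher and 1747 (9.19%) lower in Braf Smarcb1 knockout. The genes called higher in both treatments numbered 926, which is 33.8% of those under vehicle and 61.9% of those under CKI. The genes called lower in both numbered 1245, or 46.2% and 71.3%. Of genes called higher under vehicle 90.8% had a fold change of the same sign under CKI, and of those called lower 94.5%. The share of equal signs over all genes was not computed, so these percentages are a description and no test. Opposite calls numbered 13 for genes higher under vehicle and 1 for genes lower. The 3243 calls under CKI became 1996, 2036 and 2154 without Braf Smarcb1 knockout replicate 4, its replicate 1 and Braf replicate 5 of the CKI libraries.

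**Figure D5:**
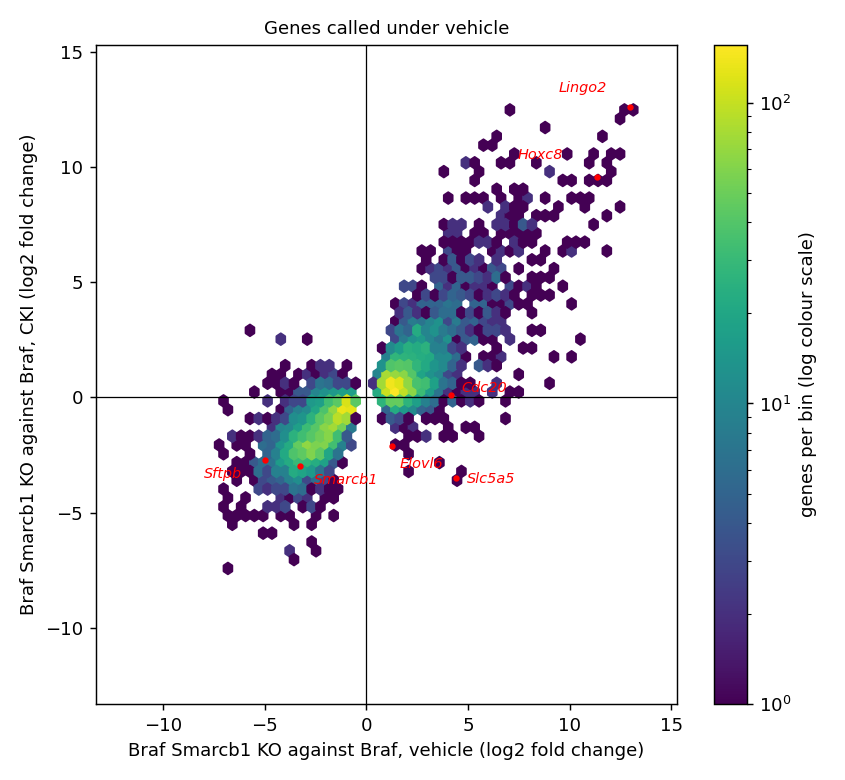
Each bin counts genes called under vehicle by their log2 fold change of Braf Smarcb1 knockout over Braf under vehicle (x) and under CKI (y), with 7 genes marked. Most bins lie in the quadrants of equal sign, and Cdc20 sits near 0 under CKI while Slc5a5 and Elovl6 are negative there.

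Hox, neuronal and junction genes were called under CKI as well. Hox genes had 16 of 28 called higher and a median of 3.41, and Hoxc8 had 35.1, 51.8 and 27.5 CPM in Braf Smarcb1 knockout against 0.13, 0 and 0 CPM in Braf under CKI. Neuronal genes had 12 of 24 called higher and 2 lower, with a median of 2.53. Epithelial junction genes had 14 of 23 called lower and 3 higher. Lingo2 had 25.8, 7.53 and 47.97 CPM in Braf Smarcb1 knockout and no count in Braf under CKI. Crabp1 was at 11.32 ± 0.87 (adjusted p = 9.27e-08). For Hoxc8 and Lingo2 every knockout library was above every Braf library in both treatments.

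Cell cycle genes were hardly called under CKI. No mitosis gene was called in either direction by edgeR or DESeq2, with a median of 0.1 and 1 gene higher at an unadjusted p under 0.05, and 2 of 20 replication genes were called higher. Cdc20 had 17.1, 20.3 and 30.4 CPM in Braf Smarcb1 knockout and 8.5, 25.7 and 29.1 CPM in Braf under CKI, which overlapped. No class II gene was called by either tool, with a median of -0.25 and 1 gene lower at an unadjusted p under 0.05, and fibroblast markers had 1 of 10 called in each direction. MAPK output genes had none called higher and 6 lower, and Spry4 had 31.8, 21.6 and 48.1 CPM in Braf Smarcb1 knockout against 38.6, 21.3 and 45.4 CPM in Braf, again with overlap. In contrast, 25 of 30 interferon-stimulated genes were called higher, with a median of 2.19, and 17 of 22 thyroid genes were called lower, with a median of -2.83.

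The difference between the effects of Smarcb1 loss under vehicle and under CKI was itself tested. It was called positive (vehicle above CKI) for 37 genes (0.195%) and negative for 21 (0.11%), and 2194 genes passed an unadjusted p under 0.05. Of the mitosis list 1 gene passed, Cdc20, with a difference of 4.06 ± 0.75 (adjusted p = 0.017). Of the replication list 1 passed, Ccne2 (2.81 ± 0.55, adjusted p = 0.0244), so for the other cell cycle genes the change between treatments did not pass the test. For Spry4 the difference was 3.51 ± 0.63 (adjusted p = 0.0165), and for Slc5a5 7.88 ± 1.59 (adjusted p = 0.0311). Slc5a5 had 17.5, 22.4 and 46.2 CPM in Braf Smarcb1 knockout and 605, 186 and 171 CPM in Braf under CKI, so it was the higher of the pair under vehicle and the lower under CKI. Elovl6 turned in the same way, at 1.28 under vehicle and -2.11 ± 0.31 under CKI (difference 3.39 ± 0.43, adjusted p = 0.00104). Of the interferon list 8 genes passed, all with a larger rise under CKI, Usp18 among them (-2.88 ± 0.49, adjusted p = 0.0112). When each of the 12 libraries was left out in turn, Elovl6 and Usp18 kept the call in all 12 fits, Spry4 in 11, Cdc20 in 8, Slc5a5 in 6 and Ccne2 in 4, and the total ranged from 19 to 77 genes. The lowest total, 19, was without CKI replicate 2 of Braf Smarcb1 knockout and the highest, 77, without its vehicle replicate 3.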

How the data were processed

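RNA-seq of mouse thyroid was analysed from whole-number read counts per gene, which the authors deposited without normalization for 33924 genes. The submitters' processing notes name build mm9 and the tools HTSeq 0.6.1, STAR 2.4 and DESeq2, with no role given, and per the labels libraries were made with a TruSeq RNA kit. Strand is not stated, so overlapping and antisense genes may share reads. Of 30 labelled samples 28 were analysed here, with 1 vehicle and 1 CKI sample of Braf Arid2 knockout not analysed here.

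edgeR 4.0.16 in R 4.3.3 fitted all 28 libraries at once, with a term per group, after filterByExpr (19016 genes) and TMM (factors 0.723 to 1.25), by glmQLFit and glmQLFTest. Adjustment was by Benjamini-Hochberg over all 19016 genes, with a threshold of 0.05. The script was tested on simulated counts. All libraries were kept, since none was a copy of another in its group: pairs gave a chi-square of 84.5 to 393 per degree of freedom. This check finds copies only, and such values do not show that replicates agree. Floors (3 counts over a group) and 95% intervals cover counting error only. CPM use effective library sizes.

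Named genes were Smarcb1, the 10 largest rises and falls (groups not overlapping, the higher one averaging 5 CPM or more, predicted and immune receptor genes left out), all measured thyroid and SWI/SNF genes, up to 4 called genes per direction with the smallest p in each of 25 described lists, and defining cell type markers. Some genes that met the rule are not reported here. Other named genes were chosen after their values were seen. The comparison, the 52 lists and the rule were chosen with earlier results of these data known. Alternatives were DESeq2 1.42.0, RLE size factors, covariates, no filter, a replicate block, the compared groups alone and leaving out each library. The fibroblast covariate, and all alternatives of the difference between treatments, were chosen after seeing the data.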

Additional observations from a re-analysis of the deposited data

Results flagged for a closer look

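For 9 of the genes named above, the effect of Smarcb1 loss under vehicle differed from that under CKI by the test of the difference itself, given here as vehicle minus CKI on the log2 scale with the p that edgeR gave it after adjustment. Among thyroid genes the difference was 7.88 for Slc5a5 (adjusted p = 0.0311), whose fold change was -3.48 under CKI, and 2.7 for Tshr (adjusted p = 0.0448), which was lower in both treatments. For the feedback inhibitor Spry4 it was 3.51 (adjusted p = 0.0165). For the cell cycle genes it was 2.81 for Ccne2 (adjusted p = 0.0244) and 4.06 for Cdc20 (adjusted p = 0.017), both near 0 under CKI. For the elongase Elovl6 it was 3.39 (adjusted p = 0.00104).

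The interferon-stimulated genes had negative differences, so their rise was larger under CKI. The value was -2.88 for Usp18 (adjusted p = 0.0112), -2.83 for Ifit1 (adjusted p = 0.0446) and -2.52 for Isg15 (adjusted p = 0.034). The samples of the 2 treatments are separate libraries, and differences in cell content between them were not tested. Leaving out each of 12 libraries in turn, the call held in all 12 fits for Elovl6 and Usp18, in 11 for Spry4, 8 for Cdc20, 6 for Slc5a5, 4 for Ccne2 and Isg15, and 2 for Tshr and Ifit1, whose adjusted p reached 0.153 and 0.152.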

How the results depend on the processing

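Each count below is the number of genes called, and the cause of a change was not tested. The vehicle comparison gave 5433 calls, 2319 with the leukocyte level as a covariate and 2335 with only the compared groups, which leaves fewer libraries to estimate the spread. It gave 6325 with DESeq2, 5442 with RLE size factors, 4841 with no low-count filter, 5700 with the dissociation stress covariate and 4099 with the fibroblast covariate. Leaving out 1 library each gave 3889 to 5140. Against Braf Arid1a knockout, leaving out a library gave 3907 to 5000. Against Braf Arid2 knockout the compared groups alone gave 1515 and leaving out a library gave 1452 to 3221, and under CKI leaving out a library gave 1996 to 2959. The 58 calls on the difference between treatments became 10 with the leukocyte covariate, 5 with the compared groups alone, 269 with DESeq2 and 19 to 77 without 1 library. Of 152 called genes that the naming rule or later choice picked, 56 lost the call with the leukocyte covariate, 39 with the fibroblast covariate, 38 with the compared groups alone, 21 without Braf replicate 4, 1 with the stress covariate and none with RLE size factors. With the leukocyte covariate the lists held 10 Hox genes, 5 other developmental factors and 5 sterol genes called higher, and 1 macrophage marker, 1 endothelial marker and 7 thyroid genes called lower. With the compared groups alone they held 8 Hox, 7 neuronal, 8 replication and 8 interferon genes called higher, and 5 thyroid genes, 3 class II genes and 2 fibroblast markers called lower. With the fibroblast covariate Pecam1 was at 2.41 and Col1a1 at 1.85, and with the leukocyte covariate Csf1r was at 0.61, all of opposite sign. Col1a1 is itself among the markers that make up the fibroblast covariate, so its turn is no test. Csf1r is a macrophage marker, and macrophages are leukocytes, so its turn with the leukocyte covariate is no test either. The median of all genes was 0.03, and 0.12 with the leukocyte covariate, 0.19 with the fibroblast covariate and 0.14 without Braf replicate 2. Same-numbered Braf Smarcb1 and Arid1a knockouts under vehicle correlated at -0.087, 0.049 and -0.026 in their deviations, so these numbers were not taken as pairs. The other compared groups shared 1 or 2 numbers, too few for this check. With the replicate number as a block the calls were 4588 against Braf, 4704 and 2228 against the Arid1a and Arid2 knockouts, 2514 under CKI and 31 for the difference.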

Other observations

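Genes of lists outside the comparison's main ones were also called, where 14.4% of all genes tested were called higher and 14.2% lower. The few called higher on these lists are single genes and no result about a list. Of 22 chemokine genes measured, 6 were called lower and Ccl2 and Cxcl10, attractants of monocytes and T cells, were called higher in Braf Smarcb1 knockout. Of 14 angiogenic factors 6 were called lower and Vegfc, a growth factor for lymphatic vessels, and Angptl4 were called higher. Of 23 genes of glycolysis and hypoxia 7 were called lower, among them the glucose transporter Slc2a1 and the hexokinases Hk1 and Hk2, and the glucose transporter Slc2a3 was called higher. Of 18 collagen genes Col1a2, Col5a1, Col6a1, Col6a2 and Col6a3 were called lower and none higher. The genes named here were chosen after their values were seen. The summed collagen level was 3799, 4854 and 1446 CPM in Braf Smarcb1 knockout and 2313, 23526 and 6991 CPM in Braf, so Braf replicate 4 stood apart here too and the groups overlapped. T cell markers, with 8 measured, and neutrophil markers, with 5 measured, had none called by edgeR. At an unadjusted p under 0.05 there was no T cell marker and 1 neutrophil marker, Retnlg, which was higher and was also called by DESeq2.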
